A study of Mus musculus with 36 samples.

Results

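The 4 genes Selenbp1, Tcp11l2, Rnf150 and Susd3 were studied in bone-marrow-derived dendritic cells given an RNA agonist of the sensor RIG-I. They were chosen from earlier results of these same data, for a large fall with the agonist or for a fall that differed between genotypes, and are 4 of the 24127 genes in the table of normalized counts. The choice named no threshold. The values that chose them, agonist against mock and its difference between genotypes, are therefore given below as a description with no test. Tests are given only for levels averaged over both treatments and their changes, which are orthogonal to the responses but come from the same libraries.

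The cells were grown from mouse bone marrow with the cytokine GM-CSF, and CD11c-positive cells were selected from the culture. Cells labelled as lacking LGP2 (LGP2-/-, gene Dhx58), called KO here after that label alone, were compared with cells of wild-type C57BL/6J mice (WT). The PAMP RNA, a poly-U/UC RNA of hepatitis C virus, was transfected at 20 ng, and mock cells were left untreated, so a transfection without this RNA was not among the groups analysed here. Cells were taken at 1, 3 and 6 h. The 12 groups were thus KO with PAMP RNA, KO mock, WT with PAMP RNA and WT mock at each time, with 3 libraries in each and 36 in all. The libraries of a group came from separately plated wells, and the labels do not say whether these held cells of separate mice, so a p-value reflects the spread between wells, which may be technical.

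RIG-I binds viral RNA in the cytoplasm and signals through the mitochondrial adaptor MAVS to the transcription factors IRF3 and NF-kB, which start the type I interferon response. LGP2 is a related helicase without the signalling domains and modulates the other sensors. Alongside the induced genes, many transcripts of dendritic cells decline during such a response. Selenbp1 encodes a selenium-binding protein that oxidizes methanethiol, releasing hydrogen sulfide and hydrogen peroxide. Tcp11l2 is a little-characterized relative of the testis protein TCP11. Rnf150 encodes a transmembrane RING ubiquitin ligase with a protease-associated (PA) domain, of the family that includes GRAIL (Rnf128), a ligase known from T cell anergy. Susd3 encodes a small membrane protein with a sushi domain, known from human breast cancer cells as an oestrogen-responsive gene linked to cell adhesion and migration.

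Selenbp1 lies on chromosome 3 from 94933056 to 94944758 on the plus strand of GRCm38. Tcp11l2 lies on chromosome 10 from 84576626 to 84614359 on the plus strand. Rnf150 lies on chromosome 8 from 82863356 to 83091268 on the plus strand. Susd3 is on the minus strand of chromosome 13, from 49230690 to 49248706. All are protein-coding in the GENCODE annotation. An annotated antisense gene, Gm45449, covers 3522 exonic bases of Rnf150 on the opposite strand, and since the kits do not mark strand, reads of the pair cannot be told apart. Selenbp1 has a near-identical neighbour on the same chromosome, Selenbp2, from 94693556 to 94704413. Of 2521 windows of 100 bases in the Selenbp1 transcripts, 477 (18.9%) also occur in Selenbp2, so some reads of this pair could be assigned to either gene. Selenbp2 had 8 reads in all, in 8 of the 36 libraries.

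Promoter windows of 300 bases, from 250 bases before the RefSeq gene start to 50 after it (RefSeq, GRCm38.p6), were available for 3 of the 4 genes and are printed with that of Selenbp2, because Selenbp1 and its neighbour share most of this sequence and differ in their reads. Capitals mark matches to 5-letter ACGTG and to TATAAA in either orientation, so that CACGT and TTTATA are matches on the opposite strand. ACGTG is a form of the core of the hypoxia response element and the only form searched. TATAAA is the sequence of the TATA box. The windows are chr3:94932833-94933132 (plus strand) for Selenbp1, chr3:94693323-94693622 (plus) for Selenbp2, chr10:84576697-84576996 (plus) for Tcp11l2 and chr13:49248245-49248544 (minus) for Susd3.
Selenbp1: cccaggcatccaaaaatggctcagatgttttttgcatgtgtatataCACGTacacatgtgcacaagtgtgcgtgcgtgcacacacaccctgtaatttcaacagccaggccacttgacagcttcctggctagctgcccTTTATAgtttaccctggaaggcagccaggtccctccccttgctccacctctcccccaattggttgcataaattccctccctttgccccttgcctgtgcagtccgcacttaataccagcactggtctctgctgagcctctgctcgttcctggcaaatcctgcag
Selenbp2: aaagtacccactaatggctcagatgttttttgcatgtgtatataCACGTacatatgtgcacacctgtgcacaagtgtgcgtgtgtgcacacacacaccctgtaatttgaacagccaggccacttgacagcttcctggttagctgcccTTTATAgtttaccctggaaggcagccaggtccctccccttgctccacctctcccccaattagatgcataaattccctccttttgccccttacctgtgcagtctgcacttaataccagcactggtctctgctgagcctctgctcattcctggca
Tcp11l2: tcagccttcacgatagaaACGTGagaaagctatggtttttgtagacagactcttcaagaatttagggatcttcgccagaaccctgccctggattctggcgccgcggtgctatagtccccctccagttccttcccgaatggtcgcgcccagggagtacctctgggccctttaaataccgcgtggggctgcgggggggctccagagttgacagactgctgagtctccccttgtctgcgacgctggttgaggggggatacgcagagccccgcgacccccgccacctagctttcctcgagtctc
Susd3: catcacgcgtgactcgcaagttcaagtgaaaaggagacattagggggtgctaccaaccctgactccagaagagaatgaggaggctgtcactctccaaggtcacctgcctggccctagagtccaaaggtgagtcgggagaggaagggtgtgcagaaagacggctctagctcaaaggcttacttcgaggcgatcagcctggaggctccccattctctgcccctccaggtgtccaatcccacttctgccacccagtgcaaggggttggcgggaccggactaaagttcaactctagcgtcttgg
An alignment of the Selenbp1 and Selenbp2 windows had 273 identical positions of 312 (87.5%). ACGTG was found 204 bases before the Selenbp1 start, 206 before that of Selenbp2 and 232 before that of Tcp11l2, and it occurs in 19.6% of the 32851 mouse promoter windows of the same length. TATAAA was found on the opposite strand 113 bases before the Selenbp1 start and 103 before that of Selenbp2. It occurs in 13.6% of all windows. The interferon-stimulated response element, searched as GAAA, any 2 bases and GAAA (3.44% of all windows), the gamma-activated sequence as TTCNNNGAA (8.30%) and the forkhead box O motif as TGTTTAC (3.65%) had no match in the 4 windows printed. These are matches of letters in a fixed window and show no binding. The windows of Susd3 and Tcp11l2 held no TATAAA, and that of Susd3 held neither of the marked motifs. These windows follow the RefSeq starts. In the GENCODE annotation both lie inside the gene, past its outermost start (84576626 for Tcp11l2 and 49248706 for Susd3). The sequence before those GENCODE starts was not searched.

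Values are normalized counts, which are reads divided by a size factor per library, and the reads behind them could be recovered as whole numbers. Libraries held 4740909 to 14255730 reads. The 4 genes are of moderate to low abundance, with mean normalized counts of 212 for Selenbp1, 119 for Tcp11l2, 144 for Rnf150 and 121 for Susd3. Their lowest libraries held 21, 11, 9 and 28 reads in the same order, all with PAMP RNA at 3 or 6 h. Log2 differences are on the scale log2(normalized count + 1), which understates the change of low counts, with standard errors (SE) from 1 limma fit to all 36 libraries. The sum of normalized counts was higher with PAMP RNA at 6 h (9.51e+06 to 1.05e+07) than in mock cells (7.32e+06 to 7.48e+06), and with every library scaled to the same total the median gene stood at -0.51 in KO and -0.39 in WT cells at 6 h, against -0.03 and -0.02 as deposited. Dhx58 reads were present in KO cells. With PAMP RNA its means at 1, 3 and 6 h were 156, 595 and 935 in KO cells against 98.3, 1477 and 3005 in WT cells, lower in KO at 3 and 6 h. In mock cells they were 147, 451 and 722 in KO against 93.6, 132 and 307 in WT, higher in KO at each time, which goes against the label. Counts over the whole gene do not show which exons the reads came from, so KO below means the libraries labelled LGP2-/-.

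The dendritic cell label was checked with 6 markers, of which all had reads and 5 had a mean of at least 10. Their summed level was 22606 to 42072, most of it from Cd74, while Flt3 was low, at group means of 2.58 to 17.5. The 5 macrophage or monocyte markers were present too, with a summed level of 7072 to 17577. Markers of the other cell types given here had low levels. The sum was 118 to 252 for 6 neutrophil markers, at most 7.42 for 4 basophil or mast cell markers, at most 6.77 for 3 B cell markers and at most 18.8 for 4 T or NK cell markers.

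Selenbp1 was many times higher in later mock cells and stayed low with PAMP RNA. At 1 h its normalized counts were 58.9, 59.4 and 55.5 in KO cells with PAMP RNA, against 61.2, 49.9 and 73.1 in KO mock cells. In WT cells at 1 h they were 46.6, 45.5 and 59.6 with PAMP RNA, against 74.4, 60.7 and 41.3 in mock cells. All 4 groups overlapped at this time. At 3 h the KO libraries held 37.3, 37.4 and 51.2 with PAMP RNA, against 285, 222 and 269 in mock cells. The WT libraries at 3 h held 33.5, 51.5 and 48.8 with PAMP RNA, against 178, 229 and 249.8 in mock cells. Every library with PAMP RNA was now below every mock library, and the genotypes still overlapped within each treatment. At 6 h the counts were 51.9, 54.4 and 47.5 in KO cells with PAMP RNA, against 882, 858 and 858 in KO mock cells. In WT cells at 6 h they were 51.9, 84.2 and 53.1 with PAMP RNA, against 606.5, 798 and 917 in mock cells. The mean with PAMP RNA was 16.9-fold below mock in KO cells and 12.3-fold below mock in WT cells at 6 h.

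The distance between treatments in Selenbp1 came with a change in mock cells rather than in cells with PAMP RNA. The mock mean at 6 h was 14.1 times that at 1 h in KO cells (866 ± 13.9 at 6 h, SD, n = 3) and 13.2 times in WT cells (774 ± 157). With PAMP RNA the mean at 6 h was 0.885 times that at 1 h in KO cells and 1.25 times in WT cells. In the order of its 12 group means, the mock groups at 6 h came first, then the mock groups at 3 h, and all 8 remaining groups lay between 42.0 and 63.0. Of the 11 pairs of neighbours in that order, 8 overlapped and 3 did not. The log2 difference between PAMP RNA and mock was -0.07, -2.60 and -4.05 in KO cells at 1, 3 and 6 h, and -0.18, -2.28 and -3.61 in WT cells (SE 0.18 each).

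**Figure D1:**
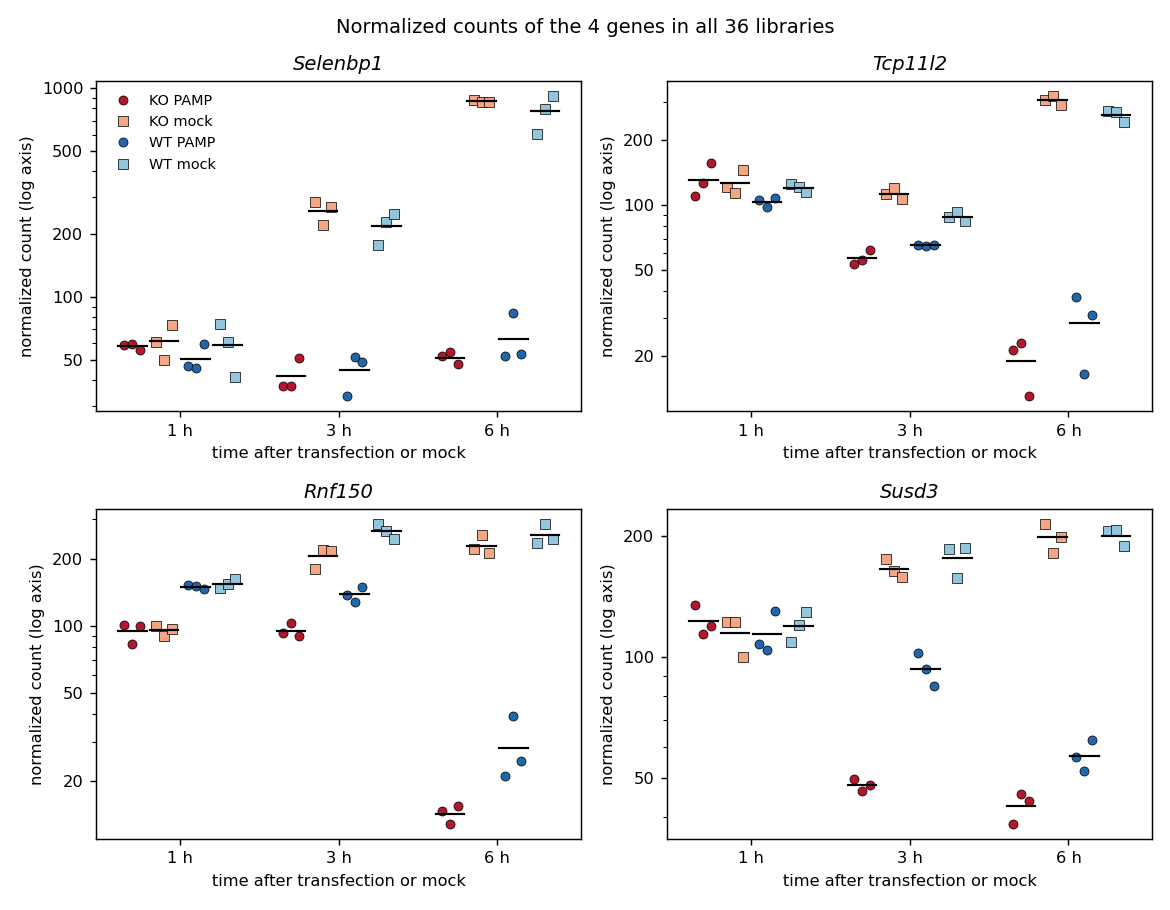
Normalized counts (log axis) of each gene in all 36 libraries at 1, 3 and 6 h, by genotype and treatment. Points are libraries and bars are means of 3 libraries. Selenbp1 reaches means of 866 (KO) and 774 (WT) in mock libraries at 6 h and stays between 42.0 and 63.0 with PAMP RNA, while Tcp11l2 and Rnf150 with PAMP RNA lie below 40 in every library at 6 h.

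Tcp11l2 differed over time in both treatments, lower at each later time with PAMP RNA and higher at 6 h in mock cells. At 1 h the counts were 110.0, 127 and 157 in KO cells with PAMP RNA, against 122, 114 and 145 in KO mock cells. In WT cells at 1 h they were 105, 98.1 and 108 with PAMP RNA, against 125, 121 and 116 in mock cells. KO groups overlapped, and the WT libraries with PAMP RNA lay just below the WT mock libraries already at 1 h. At 3 h the KO libraries held 53.3, 55.6 and 62.0 with PAMP RNA, against 113, 120.4 and 107 in mock cells. The WT libraries at 3 h held 65.2, 65.0 and 65.7 with PAMP RNA, against 87.9, 93.4 and 84.8 in mock cells. Treatments were separate in both genotypes, and the KO groups stood outside the WT groups on both sides, lower with PAMP RNA and higher in mock cells. At 6 h the counts were 21.3, 22.9 and 13.1 in KO cells with PAMP RNA, against 308, 321 and 293 in KO mock cells. The WT libraries at 6 h held 37.7, 16.6 and 31.1 with PAMP RNA, against 273, 271 and 242 in mock cells. The low values rest on 11 to 16 reads in KO libraries and 14 to 32 reads in WT libraries.

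With PAMP RNA the Tcp11l2 mean at 6 h was 6.89-fold below that at 1 h in KO cells and 3.65-fold below it in WT cells. The mock mean at 6 h was 2.42 times that at 1 h in KO cells and 2.17 times in WT cells. In log2 units PAMP RNA against mock was 0.04, -0.98 and -3.98 in KO cells and -0.22, -0.43 and -3.23 in WT cells at 1, 3 and 6 h (SE 0.17 each). The KO response minus the WT response was -0.55 at 3 h and -0.74 at 6 h (SE 0.24 each). The value at 6 h depended on single libraries. It was -1.08 without replicate 2 of WT cells with PAMP RNA and -0.51 without replicate 3 of KO cells with PAMP RNA, the lowest library of each group. In the order of its 12 group means, the mock groups at 6 h came first and the PAMP RNA groups at 6 h last, and 6 of 11 pairs of neighbours did not overlap.

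Rnf150 kept its starting level with PAMP RNA until 3 h and was far lower at 6 h, while the mock level was higher from 3 h on. At 1 h the counts were 100.4, 82.7 and 100.0 in KO cells with PAMP RNA, against 100.0, 89.5 and 96.4 in KO mock cells. WT cells at 1 h held 152, 151 and 146 with PAMP RNA, against 148, 154 and 162 in mock cells. Treatments overlapped in each genotype, and every KO library was below every WT library. At 3 h the KO libraries held 92.4, 103 and 89.6 with PAMP RNA, against 180.3, 218 and 217 in mock cells. The WT libraries at 3 h held 138, 128 and 149 with PAMP RNA, against 286, 266 and 245 in mock cells. The treatments were separate, and the KO libraries were again below the WT libraries within each treatment. At 6 h the counts were 14.6, 12.9 and 15.4 in KO cells with PAMP RNA, against 220.0, 255 and 211 in KO mock cells. In WT cells at 6 h they were 21.2, 39.1 and 24.6 with PAMP RNA, against 234, 287 and 245 in mock cells. The genotypes were separate with PAMP RNA, on 9 to 13 reads in KO and 18 to 33 reads in WT libraries, and overlapped in mock cells.

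With PAMP RNA the Rnf150 mean at 6 h was 6.64-fold below that at 3 h in KO cells and 4.89-fold below it in WT cells. The mock mean at 3 h was 2.15 times that at 1 h in KO cells and 1.72 times in WT cells, and at 6 h it was 1.12 times that at 3 h in KO cells and 0.960 times in WT cells. In log2 units PAMP RNA against mock was -0.02, -1.10 and -3.91 in KO cells and -0.05, -0.94 and -3.17 in WT cells (SE 0.13 each). The KO response minus the WT response was -0.16 at 3 h and -0.74 at 6 h (SE 0.19 each). At 6 h it was -0.49 without replicate 2 of WT cells with PAMP RNA, which held 39.1, and -0.91 without replicate 1 of that group. The 12 group means ran from 266 in WT mock cells at 3 h to 14.3 in KO cells with PAMP RNA at 6 h. Both groups with PAMP RNA at 6 h were separate from each other and from all others, and 7 of 11 pairs of neighbours overlapped.

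Susd3 had the smallest difference between treatments of the 4 genes at 6 h and the largest difference between genotypes in that response at 3 h. At 1 h the counts were 135, 115 and 119 in KO cells with PAMP RNA, against 122, 122 and 100.4 in KO mock cells. In WT cells at 1 h they were 108, 104 and 130.2 with PAMP RNA, against 109, 120.4 and 129.7 in mock cells. These 4 groups overlapped. At 3 h the KO libraries held 49.8, 46.5 and 48.2 with PAMP RNA, against 176, 164 and 158 in mock cells. The WT libraries at 3 h held 102, 93.6 and 84.8 with PAMP RNA, against 186, 158 and 187 in mock cells. With PAMP RNA every KO library was below every WT library at 3 h, while the mock groups overlapped. At 6 h the counts were 38.6, 45.8 and 43.9 in KO cells with PAMP RNA, against 215, 182 and 199 in KO mock cells. WT cells at 6 h held 56.6, 52.2 and 62.1 with PAMP RNA, against 206, 207 and 189 in mock cells. KO libraries with PAMP RNA were still below the WT ones, by a smaller margin, and mock cells overlapped.

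The KO mean of Susd3 with PAMP RNA was 0.515 times the WT mean at 3 h and 0.751 times at 6 h. In mock cells the KO mean was 0.939 and 0.989 times the WT mean at these times. In log2 units PAMP RNA against mock was 0.10, -1.77 and -2.19 in KO cells and -0.07, -0.91 and -1.80 in WT cells (SE 0.11 each). The KO response minus the WT response was 0.17, -0.85 and -0.39 at 1, 3 and 6 h (SE 0.16 each), and the value at 3 h ranked 68 from the lowest of the 11853 genes fitted. KO cells with PAMP RNA at 3 h (48.2 ± 1.62, SD, n = 3) were already below WT cells with PAMP RNA at 6 h (57.0 ± 4.99), with no overlap. Among the 12 group means the mock groups at 6 and 3 h came first, each overlapping the next, followed by the 4 groups at 1 h. The 4 groups with PAMP RNA at 3 and 6 h came last and were separate from one another.

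**Figure D2:**
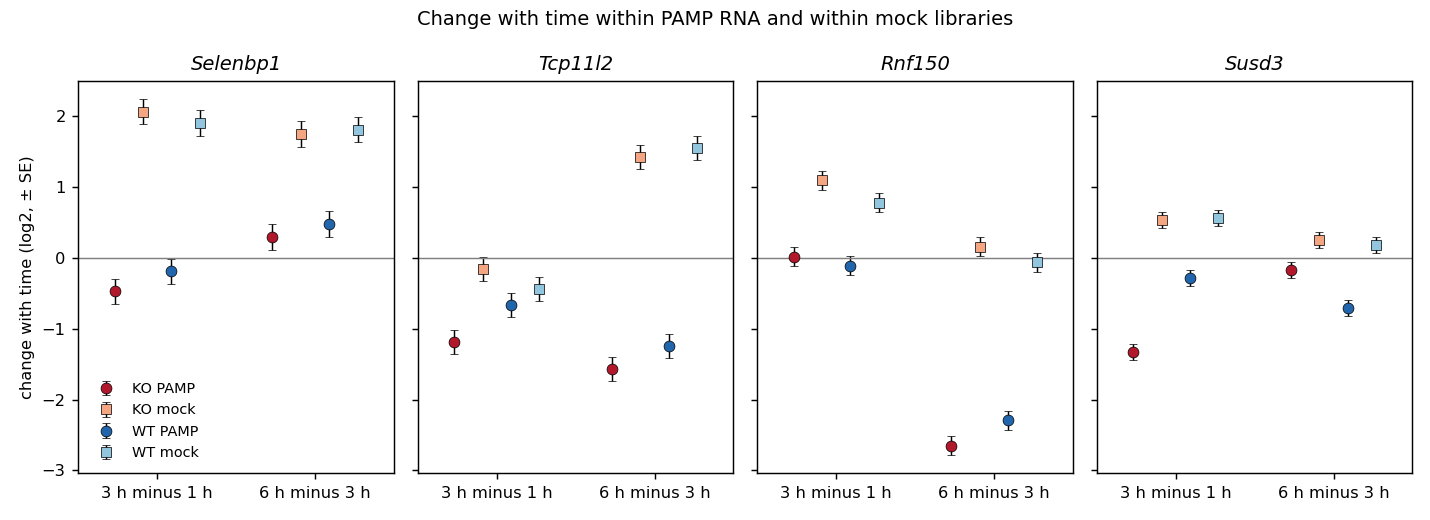
Change from 1 to 3 h and from 3 to 6 h within each genotype and treatment (log2, bars are SE of the fit), for each gene. Selenbp1 moves mostly in mock libraries, Rnf150 with PAMP RNA moves mostly between 3 and 6 h (-2.65 in KO, -2.29 in WT), and Susd3 with PAMP RNA moves mostly before 3 h in KO (-1.33) and after it in WT libraries (-0.71).

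At 3 and 6 h the libraries with PAMP RNA lay below the mock libraries in both genotypes for all 4 genes, and at 1 h only for Tcp11l2 in WT cells. The separation at 3 and 6 h goes with the choice of the genes. The Tcp11l2 difference in WT cells at 1 h was -0.22 (SE 0.17). How many of all genes had such a separation was not counted, and the shares given next are of genes called, an unlike measure. Over all 11853 genes, 26.9% in KO and 22.0% in WT cells were called lower with PAMP RNA at 3 h, and 36.5% and 33.3% at 6 h, at an adjusted p under 0.05. At 1 h these shares were 0.169% in KO and 0.143% in WT cells. Counted from the lowest log2 difference at 6 h, Selenbp1, Tcp11l2, Rnf150 and Susd3 ranked 8, 9, 10 and 126 in KO cells and 4, 8, 10 and 118 in WT cells. These ranks describe how the genes were chosen. In RNA of a whole culture, fewer cells of a type and less RNA per cell cannot be told apart. The summed level of the 5 macrophage or monocyte markers at 6 h was 16913 to 17577 in KO cells with PAMP RNA against 14183 to 14840 in KO mock cells, and 13771 to 15230 with PAMP RNA against 13186 to 13955 in mock cells in WT. The sum of the 6 dendritic cell markers at 6 h was 32425 to 32620 in KO cells with PAMP RNA against 28344 to 29386 in KO mock cells, and 39836 to 42072 with PAMP RNA against 38286 to 40202 in mock cells in WT. Among them Itgax was lower with PAMP RNA, at 2509 against 2753 in KO and 2599 against 3017 in WT cells. Flt3 was lower in WT cells only (16.6 against 17.5), and the other means were higher with PAMP RNA. The members of the macrophage or monocyte list went both ways at 6 h. Csf1r averaged 6620 with PAMP RNA against 10167 in mock cells in KO, and 6109 with PAMP RNA against 9185 in mock cells in WT, and Adgre1 and Cd14 were lower with PAMP RNA in both genotypes too. Fcgr1 averaged 7241 with PAMP RNA against 409 in mock cells in KO, and 5348 with PAMP RNA against 455 in mock cells in WT, and Mertk was higher as well. The 6 neutrophil markers summed to 195 to 218 with PAMP RNA against 118 to 130 in mock cells in KO at 6 h, and to 138 to 155 with PAMP RNA against 119 to 138 in mock cells in WT. The part of these markers in the differences of the 4 genes was not tested.

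Since the genes were chosen on responses, the level of each genotype averaged over both treatments was tested, a contrast orthogonal to the responses, with KO taken from the labels, which the Dhx58 reads of mock cells go against. Rnf150 was lower in KO than in WT cells at every time by limma with Benjamini-Hochberg adjustment. The difference was -0.68 at 1 h, -0.46 at 3 h and -0.53 at 6 h (SE 0.09 each, adjusted p = 2.23e-07, 0.000225 and 3.09e-05), and -0.55 over all times (SE 0.05, adjusted p = 1.13e-11). The KO mean of Rnf150 was 0.631, 0.687 and 0.506 times the WT mean with PAMP RNA at 1, 3 and 6 h, and 0.617, 0.771 and 0.896 times in mock cells. At 1 h, before the treatments separated, the difference was thus present in both treatments. At 6 h it lay mostly in the libraries with PAMP RNA, while the mock libraries of the genotypes overlapped. Those libraries with PAMP RNA also gave the responses on which the genes were chosen. The level difference at 6 h is therefore no separate support for the genotype difference in response.

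Susd3 was lower in KO cells at 3 h (-0.51, SE 0.08, adjusted p = 2.55e-06) and over all times (-0.23, SE 0.05, adjusted p = 6.49e-05). The KO mock mean at 3 h was 0.939 times the WT mock mean, so the difference at 3 h lay mostly in the libraries with PAMP RNA that also gave the response for which Susd3 was chosen, and it is no separate support for that response. The differences of 0.02 at 1 h and -0.21 at 6 h missed the threshold (adjusted p = 0.888 and 0.0522). The value at 6 h passed without replicate 2 of WT cells with PAMP RNA (adjusted p = 0.0361), without replicate 1 of KO mock cells (0.0409) or without replicate 2 of KO cells with PAMP RNA (0.0385). Selenbp1 and Tcp11l2 passed at no time, with differences of 0.06 (SE 0.07, adjusted p = 0.537) and 0.04 (SE 0.07, adjusted p = 0.668) over all times. Of the 4 genes, 1 was called at 1 h, 2 at 3 h, 1 at 6 h and 2 over all times, against 19.0%, 25.4%, 22.5% and 37.5% of all genes tested. The summed dendritic cell markers were also lower in KO libraries at each time, at 22700 to 25429 against 31898 to 35971 in WT libraries at 1 h. Most of that lay in Cd74 and H2-Ab1, while Itgax averaged 3265 in KO and 3354 in WT mock cells at 1 h. The other members were lower in KO mock cells at 1 h too: Zbtb46 (278 against 357 in WT), Ciita (608 against 810) and Flt3 (3.88 against 8.35). The summed neutrophil markers were higher in KO cells at 1 h, at 210 to 252 against 118 to 197 in WT cells, and with PAMP RNA at 6 h, at 195 to 218 in KO against 138 to 155 in WT. The part of these markers in the genotype differences was not tested.

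**Figure D3:**
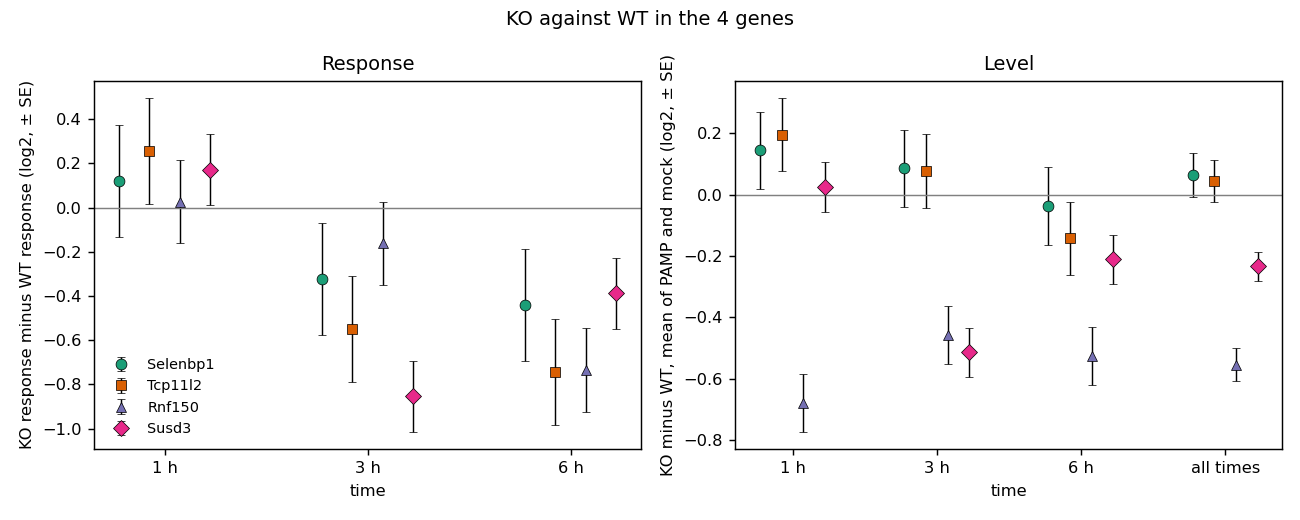
Left, KO response minus WT response (log2) for each gene at 1, 3 and 6 h. Right, KO minus WT level averaged over PAMP RNA and mock (log2), at each time and over all times. Bars are SE of the fit. Rnf150 sits below 0 at every time in level (-0.68, -0.46 and -0.53), and Susd3 has its lowest values at 3 h in both panels (-0.85 in response and -0.51 in level).

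The change of this averaged level with time was tested in each genotype. Selenbp1 rose in every step, by 0.80 from 1 to 3 h and 1.02 from 3 to 6 h in KO cells (adjusted p = 4.27e-07 and 1.89e-09), and by 0.86 and 1.14 in WT cells (adjusted p = 9.90e-08 and 1.07e-10). In mock cells its steps were 2.07 and 1.75 in KO and 1.90 and 1.81 in WT. With PAMP RNA they were -0.47 and 0.30 in KO and -0.19 and 0.48 in WT. This averaged rise thus overlaps with the response that chose Selenbp1. The averaged level of Rnf150 rose and then fell, by 0.55 and -1.25 in KO cells (adjusted p = 1.83e-06 and 1.15e-15) and by 0.33 and -1.18 in WT cells (adjusted p = 0.0023 and 8.09e-15). The rise lay in mock cells (1.09 in KO, 0.78 in WT) and the fall in cells with PAMP RNA (-2.65 in KO, -2.29 in WT). In mock cells the later step was 0.16 in KO and -0.06 in WT. The averaged fall thus overlaps with the response that chose the gene. The averaged level of Tcp11l2 fell from 1 to 3 h, with changes of -0.67 in KO cells (adjusted p = 4.28e-06) and -0.55 in WT cells (adjusted p = 9.76e-05). With PAMP RNA this step was -1.18 in KO and -0.66 in WT cells, and in mock cells it was -0.16 in KO and -0.44 in WT (SE 0.17 each). Tcp11l2 thus fell in both treatments in WT cells, and in KO cells mostly with PAMP RNA, which overlaps with the response that chose it. Its next step was -0.07 in KO cells and 0.15 in WT cells and passed in neither (adjusted p = 0.649 and 0.276), where opposite changes in the treatments average out (-1.56 with PAMP RNA and 1.43 in mock cells in KO, -1.25 with PAMP RNA and 1.55 in mock cells in WT). Without replicate 2 of WT cells with PAMP RNA at 6 h the WT step was 0.32 and passed (adjusted p = 0.00694). The step from 1 to 3 h was called for 4 of the 4 genes in KO cells and 3 in WT cells, against 59.9% and 60.6% of all genes. The step from 3 to 6 h was called for 2 in KO cells and 3 in WT cells, against 61.1% and 59.8%.

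Susd3 was the gene whose time change differed between genotypes. Its averaged level fell from 1 to 3 h in KO cells, with a change of -0.40 (adjusted p = 3.25e-05), while in WT cells the change was 0.14 (adjusted p = 0.132). From 3 to 6 h the change was 0.04 in KO cells (adjusted p = 0.678) and -0.26 in WT cells (adjusted p = 0.00499). The KO change minus the WT change was -0.54 for the first step (SE 0.11, adjusted p = 0.00126), and 0.30 for the second (SE 0.11, adjusted p = 0.362). Within treatments the first step was -1.33 in KO and -0.28 in WT cells with PAMP RNA, and 0.53 in KO and 0.56 in WT mock cells, so here too the averaged difference overlaps with the response that chose the gene. The other 3 genes did not pass for either step. Over all genes, 9.04% were called for the first and 0.363% for the second.

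The 4 genes differed in abundance per length. Per kilobase of merged exons, KO mock cells at 6 h held 381 normalized counts of Selenbp1, 89.4 of Tcp11l2, 70.1 of Susd3 and 13.3 of Rnf150. In KO cells with PAMP RNA at 6 h the same levels were 22.6, 5.55, 15.1 and 0.830. The order of Tcp11l2 and Susd3 was thus opposite with and without PAMP RNA. The merged exons of Rnf150 span 17242 bases, against 2273 for Selenbp1, so its level per length rests on the annotation of a long transcript end.

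Over the 12 group means of log2(value + 1), the profiles of Tcp11l2, Rnf150 and Susd3 were close to each other, with Pearson r of 0.85 for Tcp11l2 and Rnf150, 0.89 for Tcp11l2 and Susd3 and 0.86 for Rnf150 and Susd3. Selenbp1 was less like them, at 0.57 with Rnf150, 0.67 with Tcp11l2 and 0.75 with Susd3. These r values are descriptions over 12 points that share libraries and treatments. Those points include the responses on which the genes were chosen, so likeness between the chosen genes goes in part with that choice. The share of genes with an r of at least 0.9 was counted among 9788 genes with a mean of at least 50. It was 1.81% for Selenbp1, 2.22% for Tcp11l2, 1.79% for Rnf150 and 1.90% for Susd3. No pair of the chosen genes reached 0.9. How common the r values of these pairs are among all genes was not counted.

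The 5 genes most like Selenbp1 were Rgp1, a subunit of an exchange factor for Rab6 (r = 0.99), Bnip3l, a mitophagy receptor (0.99), Dhdh, a dihydrodiol dehydrogenase (0.99), Cercam (0.98) and Gpi1, the glycolytic glucose-6-phosphate isomerase (0.98). Their log2 differences at 6 h reached -1.71 in KO and -1.32 in WT cells (Dhdh), against -4.05 and -3.61 for Selenbp1. Gpi1 averaged 2478 with PAMP RNA against 7004 in mock cells in KO, and 3272 with PAMP RNA against 7674 in mock cells in WT. Most like Tcp11l2 were Ulk1, the kinase that starts autophagy, Ccpg1, a receptor of autophagy of the endoplasmic reticulum, Ddx26b, Slc2a8, a glucose transporter, and Ern1, the stress sensor IRE1 alpha, all with r of 0.98. Ulk1 averaged 155 with PAMP RNA against 420.0 in mock cells in KO, and 178 with PAMP RNA against 393 in mock cells in WT at 6 h.

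Most like Rnf150 were Ephx1, the microsomal epoxide hydrolase (r = 0.99), Abhd4 (0.99), Pkd1, which encodes polycystin-1 (0.98), Cd244, a receptor of the SLAM family (0.98), and Prkar2b, a regulatory subunit of protein kinase A (0.97). Of these Cd244 came nearest in size at 6 h, with means of 80.7 with PAMP RNA against 499 in mock cells in KO, and 105 with PAMP RNA against 493 in mock cells in WT, log2 differences of -2.62 and -2.21. Most like Susd3 were Pja1, a RING ubiquitin ligase (r = 0.99), Zfp157 (0.99), Dnajc28 (0.98), 2310003H01Rik (0.98) and Gid4, a substrate receptor of the GID ubiquitin ligase (0.98). Dnajc28 averaged 18.2 with PAMP RNA against 82.1 in mock cells in KO, and 22.7 with PAMP RNA against 87.1 in mock cells in WT at 6 h, log2 differences of -2.16 and -1.89, close in size to the -2.19 and -1.80 of Susd3.

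**Figure D4:**
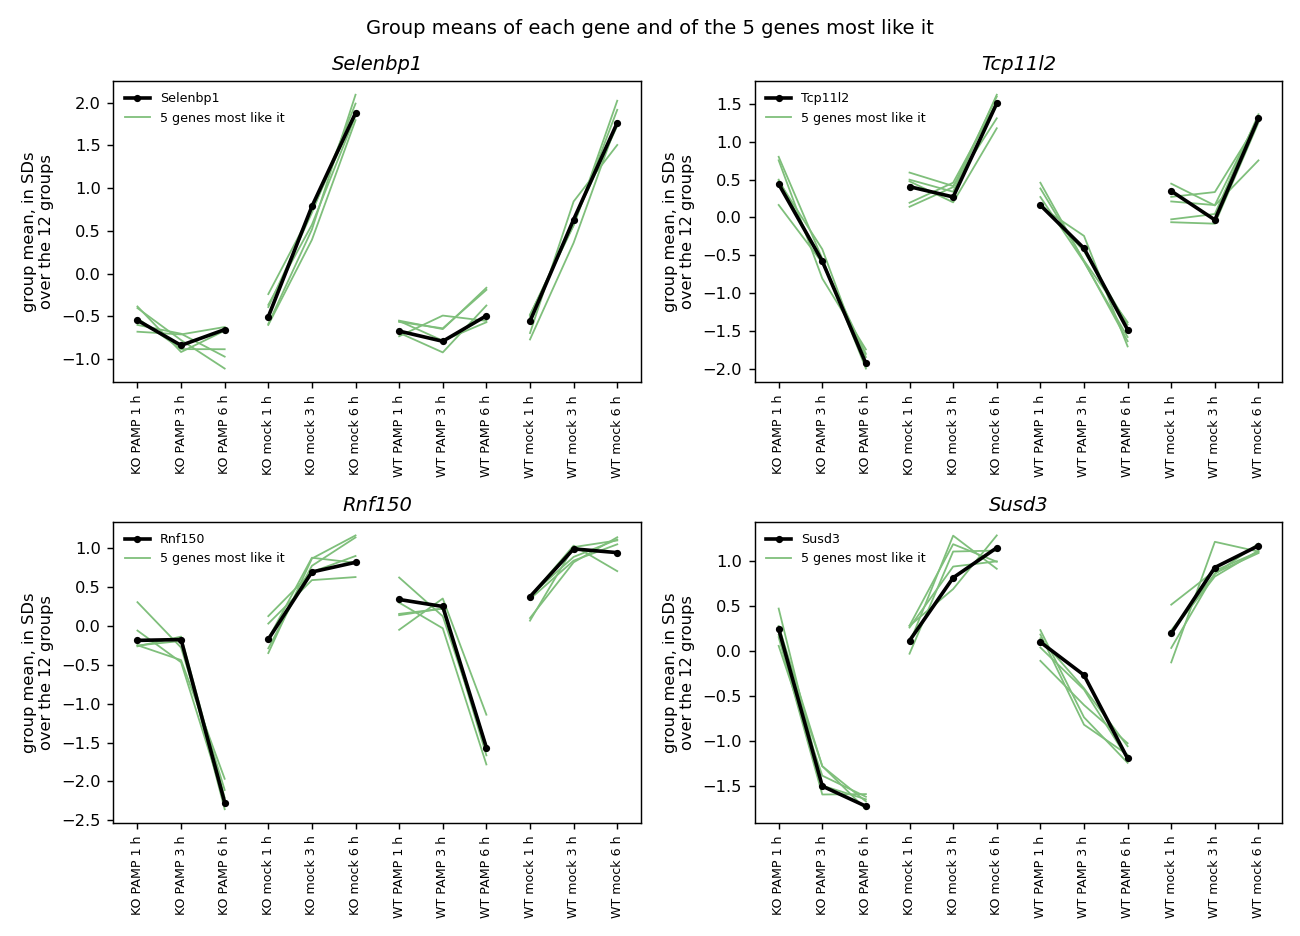
Group means of log2(value + 1) of each gene (black) and of the 5 genes with the highest Pearson r with it (green), each centred and scaled to its SD over the 12 groups. Groups run by genotype and treatment, each at 1, 3 and 6 h. All 20 r values lie between 0.97 and 0.99 after rounding, and the scaling hides that the other genes differ less between treatments than Selenbp1, Tcp11l2 and Rnf150 do.

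Related genes, which were listed by family, differed less between treatments at 6 h. Of 10 PA-RING ligases in the family of Rnf150, 7 averaged at least 10 normalized counts. At 6 h 5 were lower with PAMP RNA than in mock cells in KO and 6 in WT, and none was higher (limma, adjusted p under 0.05, against 36.5% and 33.3% of all genes lower). Their median log2 difference was -0.28 in KO and -0.22 in WT cells, against -0.03 and -0.02 for all genes. Rnf128 counts at 6 h were 670, 608 and 556 in KO cells with PAMP RNA, against 1273, 1306 and 1353 in KO mock cells. In WT cells they were 657, 672 and 740 with PAMP RNA, against 1234, 1365 and 1334 in mock cells. Rnf128 was lower with PAMP RNA than in mock cells by 1.10 in KO (SE 0.06, adjusted p = 1.61e-21) and by 0.93 in WT cells on the log2 scale (adjusted p = 1.63e-18), with no overlap between treatments. This gap came with a rise in mock cells. From 1 to 6 h the Rnf128 mock mean went from 636 to 1311 in KO and from 646 to 1311 in WT cells. With PAMP RNA the mean went from 548 to 612 in KO and from 511 to 690 in WT cells. Rnf43, which removes Wnt receptors from the membrane, was lower with PAMP RNA by 1.82 in KO cells (SE 0.28, adjusted p = 1.46e-07), where the libraries with PAMP RNA held 15 reads in all. Its WT change was -0.62 (SE 0.28, adjusted p = 0.0476), a call that DESeq2 did not make (adjusted p = 0.0622) and that was lost without any 1 of 5 libraries, including replicate 2 with PAMP RNA (-0.38, adjusted p = 0.272). The calls of Rnf149 (-0.13 in KO, -0.14 in WT) were lost without single libraries as well (adjusted p up to 0.109 in KO and 0.0747 in WT). Rnf133 and Rnf148 had no read in any library.

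Of 5 further sushi-domain genes, 3 had a mean of at least 10. Susd1 was lower with PAMP RNA than in mock cells at 6 h by 0.96 in KO (SE 0.08, adjusted p = 2.82e-15) and by 1.04 in WT cells (adjusted p = 2.25e-16). Its counts were 211, 229 and 196 in KO cells with PAMP RNA against 416, 397 and 425 in mock cells, and 218, 259.7 and 223 in WT cells with PAMP RNA against 489.9, 523 and 434 in mock cells. Susd6 was higher with PAMP RNA at 3 h by 0.91 in KO and 0.70 in WT cells (adjusted p = 6.30e-21 and 1.71e-16). At 6 h it was higher by 0.34 and 0.22 (adjusted p = 9.11e-08 and 0.000214), a direction that turned round under quantile normalization and under equal totals. Tcp11l1, the measured relative of Tcp11l2, changed by -0.28 in KO (adjusted p = 0.00995) and by -0.22 in WT cells (adjusted p = 0.0536) at 6 h. The KO call was lost without replicate 3 of KO cells with PAMP RNA (adjusted p = 0.0655), and the WT change passed without replicate 3 of WT cells with PAMP RNA (adjusted p = 0.0108).

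Among Selenbp2 and 7 genes of sulfide oxidation and production, the pathway that handles the hydrogen sulfide released by Selenbp1, 5 had a mean of at least 10. At 6 h 4 were lower with PAMP RNA than in mock cells in KO and 3 in WT, against 36.5% and 33.3% of all genes lower. Tst, the sulfur transferase rhodanese, was lower with PAMP RNA by 1.14 in KO and 1.13 in WT cells (SE 0.17 each, adjusted p = 1.15e-07 and 1.76e-07). Its counts were 29.3, 24.3 and 24.9 in KO cells with PAMP RNA against 54.1, 57.9 and 65.2 in mock cells, and 31.8, 22.5 and 23.3 in WT cells with PAMP RNA against 62.9, 52.2 and 57.4 in mock cells. Mpst, a mercaptopyruvate sulfurtransferase, was lower by 0.34 and 0.42 (adjusted p = 0.00382 and 0.00054), and Sqor, the mitochondrial sulfide oxidase, by 0.25 and 0.35 (adjusted p = 0.000665 and 4.46e-06). Suox, sulfite oxidase, changed by -0.32 in KO (adjusted p = 0.0187) and by 0.00 in WT cells (adjusted p = 0.994), a KO call lost under quantile normalization (adjusted p = 0.0537) and without replicate 1 of KO mock cells (0.112) or replicate 3 of KO cells with PAMP RNA (0.227). The list's median was -0.32 in KO and -0.35 in WT cells, against -0.03 and -0.02 for all genes.

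**Figure D5:**
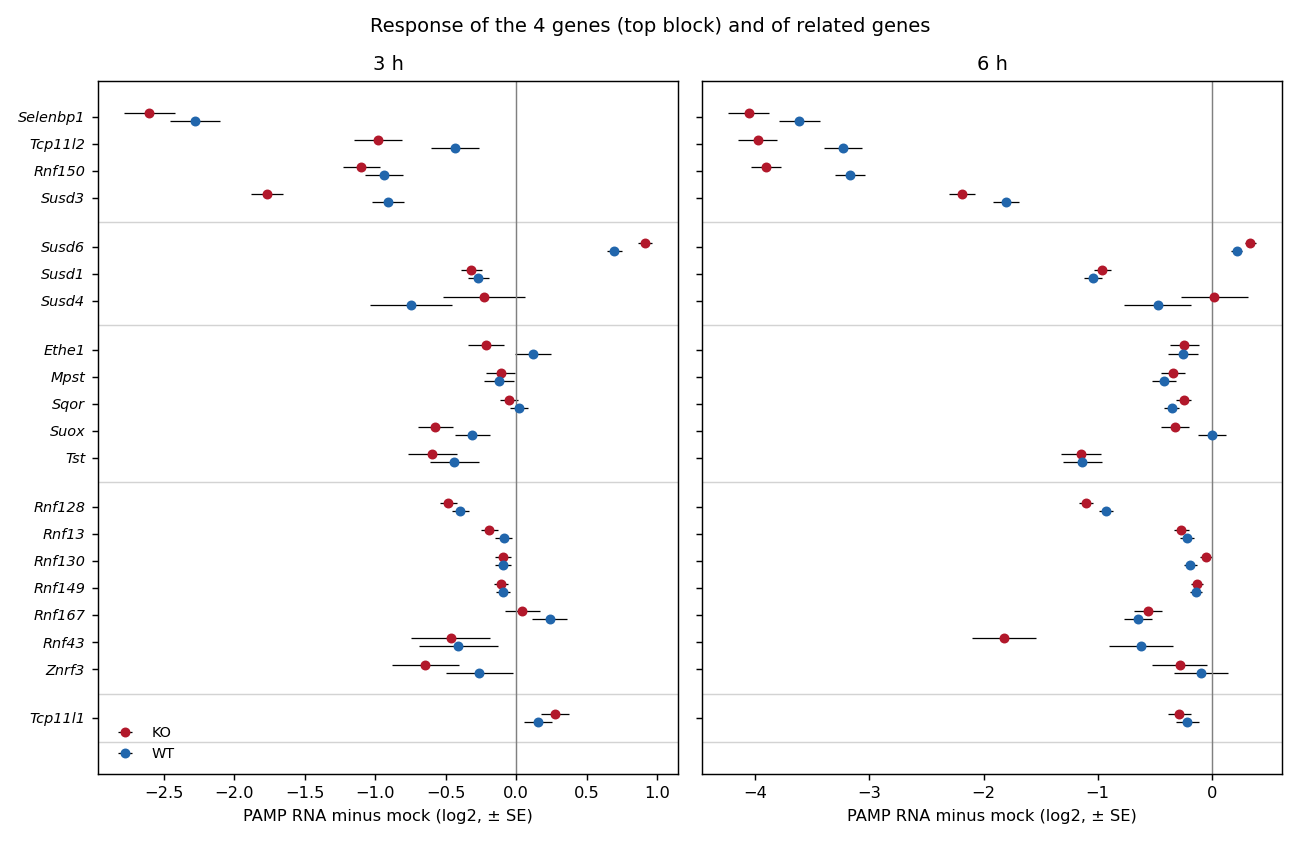
PAMP RNA minus mock (log2, bars are SE of the fit) at 3 and 6 h for the 4 genes (top block) and for the tested genes of the sushi-domain, sulfide, PA-RING and TCP11 lists, KO above WT in each row. At 6 h the 4 genes, chosen for a large fall or a genotype difference in it, lie between -4.05 and -1.80, while the related genes lie between -1.82 and 0.34.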

How the data were processed

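RNA of 36 libraries of mouse GM-CSF-cultured bone-marrow dendritic cells was measured by RNA sequencing. Libraries were made with the SMARTer HV and Nextera XT kits and read as single 100-base reads, per the labels' protocols. TopHat, Cufflinks and DESeq2 with GRCm38 (mm10) are named in the submitters' processing notes, with no version, role or annotation stated for any of them. The authors deposited DESeq-normalized counts, a signal per gene equal to reads divided by 1 size factor per library. Dividing by the smallest step of each library gave whole numbers for 100% of values (tolerance 0.01 read), with 4740909 to 14255730 reads per library, which limit the precision of low values. No column was left unmapped.

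Values were used as log2(normalized count + 1) for the 11853 of 24127 genes with a mean of at least 10. The main test was limma 3.58.1 (R 4.3.3) with a mean-variance trend, 12 group means and 24 residual degrees of freedom, two-sided, with Benjamini-Hochberg adjustment over all genes tested and a threshold of 0.05. It was tested on simulated data with known changes. On the recovered reads, edgeR 4.0.16 (quasi-likelihood) called 8364 genes for KO and 7640 for WT cells at 6 h, against 8494 and 7754 by limma, and DESeq2 1.42.0 called 8120 and 7351. Other alternatives were pseudocounts of 0.5 and 5, no filter and a minimum mean of 50, quantile normalization, equal totals, the replicate number as a block, and each library left out. Replicate numbers did not pair libraries (median correlation of same-numbered deviations 0.0017).

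The 4 genes and the lists of related genes and markers were chosen with earlier results of these data known. Named genes are the 4 genes, every listed relative, Dhx58 and, for each of the 4, the 5 genes with the highest r over group means. Listed genes under an older name were matched through RefSeq synonyms (among them Susd6, Sqor and Adgre1), and Ly6g was not matched. The result of 1 further marker list is not reported here. Matplotlib 3.10.9 drew the figures.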

Additional observations from a re-analysis of the deposited data

Results flagged for a closer look

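Susd3 changed differently with time in KO and WT cells between 1 and 3 h. The KO change minus the WT change of its level, averaged over PAMP RNA and mock cells, was -0.54 (SE 0.11, limma adjusted p = 0.00126, over all genes tested). The change was -0.40 in KO cells and 0.14 in WT cells. The difference ranged from -0.59 to -0.50 with any 1 library of these groups left out. With PAMP RNA the step was -1.33 in KO and -0.28 in WT cells, and in mock cells it was 0.53 in KO and 0.56 in WT cells. Susd3 was chosen partly for the genotype difference of its response at 3 h, which rests on the same libraries, so this test is no separate evidence of it. Groups of 3 libraries are too small for a test of single outlying libraries.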

How the results depend on the processing

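Each averaged level or change of the 4 genes that passed the threshold also passed, in the same direction, under each alternative that gave it an adjusted p. Of those that did not pass, 8 changed sign in some alternative, without passing there. DESeq2 gave no adjusted p for the genotype difference in the later time change of the 4 genes. Susd3 gained a genotype level at 6 h with a minimum mean of 50 (-0.21, adjusted p = 0.0452), under equal totals (-0.26, adjusted p = 0.0152) and without any 1 of 3 libraries (-0.24 each), in a range of -0.24 to -0.18 over all libraries left out in turn. Without replicate 2 of WT cells with PAMP RNA at 6 h, Tcp11l2 gained a genotype level at 6 h (-0.31, range -0.31 to -0.024) and a WT step from 3 to 6 h (0.32, range 0.035 to 0.32).

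Equal totals moved the median gene, and the differences between PAMP RNA and mock moved with it. In KO cells they were then -1.23 (Tcp11l2), -1.35 (Rnf150) and -2.01 (Susd3) at 3 h, and -4.53 (Selenbp1), -4.44 (Tcp11l2), -4.36 (Rnf150) and -2.67 (Susd3) at 6 h. In WT cells they were -1.11 (Rnf150) and -1.09 (Susd3) at 3 h, and -3.98 (Selenbp1), -3.59 (Tcp11l2), -3.53 (Rnf150) and -2.17 (Susd3) at 6 h. The steps with PAMP RNA under equal totals were, in KO cells, -0.74 and 0.0052 for Selenbp1, -1.45 and -1.84 for Tcp11l2, -0.26 and -2.92 for Rnf150 and -1.60 and -0.46 for Susd3. In WT cells they were -0.32 and -2.54 for Rnf150, -0.48 and -0.96 for Susd3, and -1.49 for the later step of Tcp11l2. The share of calls that were higher with PAMP RNA at 6 h was 49.0% in KO and 49.1% in WT cells, 40.4% and 40.0% under quantile normalization, and 20.2% and 20.8% under equal totals.

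With a pseudocount of 5 the differences at 6 h were -3.72 (Tcp11l2, KO), -3.59 (Rnf150, KO) and -2.998 (Rnf150, WT), and the later step of Rnf150 in KO cells with PAMP RNA was -2.37. Under quantile normalization Susd3 had -2.06 in KO cells at 6 h, and its later step with PAMP RNA was -0.030. With single libraries left out, differences at 6 h ranged from -4.12 to -3.74 (Tcp11l2, KO), -3.47 to -2.90 (Tcp11l2, WT) and -3.42 to -2.99 (Rnf150, WT). The KO response minus the WT response ranged from -1.08 to -0.51 (Tcp11l2) and -0.91 to -0.49 (Rnf150), and the later step with PAMP RNA from -1.71 to -1.33 (Tcp11l2, KO), -1.48 to -0.91 (Tcp11l2, WT) and -2.55 to -2.12 (Rnf150, WT).

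Among related genes, 32 of 96 responses changed a call in some alternative, and 6 values reversed. Susd6 at 6 h became -0.31 in KO and -0.25 in WT cells under quantile normalization and -0.15 and -0.16 under equal totals. Under equal totals Sqor in WT cells at 3 h became -0.15 and Suox in WT cells at 6 h -0.37. Counts of genes called moved for the genotype difference in response at 1 h (9 by edgeR, 14 by limma) and 3 h (242 under quantile normalization against 372, and 237 to 417 with single libraries left out), and for the genotype difference in the later time change (67 by DESeq2, 43 by limma). The cause of these moves was not tested.

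Same-numbered libraries did not deviate together (correlations -0.114 to 0.183), and 12 of 36 libraries correlated best with their own number, so the replicate number pairs nothing. With the replicate number as a block, no call on the 4 genes changed, and Rnf150 differed between genotypes over all times by -0.55 (adjusted p = 2.20e-11). With 9 to 33 reads behind Rnf150 and 11 to 32 behind Tcp11l2 in libraries with PAMP RNA at 6 h, their log2 differences there carry the largest counting error. The groups hold 3 libraries each.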
